A study of Arabidopsis thaliana with 7 samples.

Results

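Glucosinolate synthesis is described here through 4 genes that act at different steps of the pathway. They are BCAT4 (AT3G19710) for methionine chain elongation, AOP3 (AT4G03050) for side-chain modification, and the glucosyltransferase genes UGT74B1 (AT1G24100) and AT2G31790 for the core structure. The genes were taken for their place in the pathway, at a time when earlier results of these data were known, and all 4 were found, each on 1 probe set, among the 13355 genes that the annotation names on the array. Transcript levels were measured once per group on 7 Affymetrix ATH1 arrays, as log2 values. All seedlings were of Arabidopsis thaliana accession Ler-0, germinated on Murashige and Skoog medium, moved after 14 days and kept for 21 days on medium with or without quantum dots of cadmium sulfide (CdS QDs), which are semiconductor crystals at the nanometre scale. WT was measured at 0, 40 and 80 mg/L, the last named in the labels as the minimum inhibitory concentration for WT. The lines atnp01 and atnp02, which the labels call resistant mutants tolerant to CdS QDs, were measured at 0 and 80 mg/L. The sources used here do not give their mutated genes, the number of plants behind an array or whether cultures were separate.

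Glucosinolates are sulfur-rich defence compounds of the cabbage order. In the methionine-derived branch the amino acid is first lengthened, then converted to a core structure that receives a glucose and a sulfate, and its side chain is last modified. Myrosinases and related glucosidases split the stored compounds after tissue damage, and plants short of sulfur are known to lower synthesis of glucosinolates and to reuse their sulfur. BCAT4 removes the amino group of methionine at the start of chain elongation. AOP3 is a dioxygenase that turns a sulfinyl side chain into a hydroxyalkyl one, and the accession Ler is known for expressing it. UGT74B1 attaches glucose to the sulfur atom of the core.

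The 7 arrays had medians between 3.39 and 3.48 and between 3757 and 3860 probe sets at log2 6 or above, the floor that a gene had to reach on its brightest array to be tested. A group of 1 array has no error of its own, and precision is limited by how few arrays there are. The limma model therefore took the 3 lines as repeats of the change from 0 to 80 mg/L. Its error starts from the spread of that change among lines, with 2 residual degrees of freedom, not among plants of 1 line. The eBayes step then draws it toward the spread typical of genes at a like level. For the 4 synthesis genes the resulting SEs were smaller than their own spread among lines would give. The SD of the change over the 3 lines was 0.48 for BCAT4 and 0.64 for AOP3. In whole seedlings, fewer cells of a type and less RNA per cell cannot be told apart. Of 8 leaf markers 4 were on the annotation, and their mean log2 level was 9.45 to 9.53 on unexposed and 9.41 to 9.55 on exposed arrays. Within that mean, the light-harvesting gene LHCB4.3 rose by 1.09 at 80 mg/L (limma adjusted p = 0.000289), while LHCB4.2 fell by 0.79, LHCB4.1 by 0.24 and the Rubisco activase gene RCA by 0.14 (limma adjusted p = 0.000102, 0.0381 and 0.0377). LHCB4.3 lay below the floor on every unexposed array, so it was tested because of its exposed ones. Without the floor LHCB4.3 and LHCB4.2 passed (limma adjusted p = 0.00147 and 0.00116), and LHCB4.1 and RCA did not (limma adjusted p = 0.154 and 0.279). The mean is thus no measure of a steady share of leaf. Of 6 root markers 3 were on the annotation: the root glucosidase gene PYK10 was at 10.23 to 10.70, while the root-hair genes EXPA7 and EXPA18 stayed at or below 1.88 and 2.95. The mean level of these 3 genes was 4.73 to 4.83 on unexposed and 4.53 to 5.15 on exposed arrays. None of the 10 flower and seed markers was on the annotation. The senescence gene SAG29 was the 1 of 4 listed senescence genes annotated, at 4.40 to 5.41 without QDs and at 6.68 to 7.26 with them. Poly-A spike-in controls averaged 3.38 to 3.71 on unexposed and 2.91 to 3.20 on exposed arrays. The difference between 3' and 5' control probe sets of GAPDH overlapped, at 0.22 to 0.58 and 0.24 to 0.39. That of actin was larger and overlapped too, at 1.77 to 2.05 on unexposed and 1.88 to 2.17 on exposed arrays. The part of senescence or of the spike-in difference in the results that follow was not tested.

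The first comparison asked how the steps of the pathway responded to 80 mg/L in the 3 lines. BCAT4, AOP3 and AT2G31790 fell in every line, and UGT74B1 did not pass the test. The falls of these 3 genes were ordered by line in the same way, largest in WT, smaller in atnp01 and smallest in atnp02. The order was not particular to them, since UGT74B1 had it too, at -0.32, -0.17 and 0.01. How many of all genes share this order was not counted.

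BCAT4, at the entry to chain elongation, was at log2 values of 9.79 (WT), 9.56 (atnp01) and 9.73 (atnp02) without QDs. At 80 mg/L its log2 values were 8.0 (WT), 8.10 (atnp01) and 8.89 (atnp02). The unexposed and exposed arrays did not overlap, and the atnp02 array stood above the other two exposed ones. BCAT4 fell by 1.36 on the log2 scale across lines (SE 0.16, 95% interval -1.75 to -0.97), which corresponds to 2.57-fold if the deposited scale is plain log2. Its limma adjusted p was 0.000602, and it was lower in 3 of 3 lines.

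AOP3, at the end of the pathway, had log2 values of 8.60, 8.21 and 8.32 without QDs in WT, atnp01 and atnp02. At 80 mg/L they were 5.90, 5.84 and 6.86, again without overlap and again highest in atnp02. The WT and atnp01 values at 80 mg/L were below the floor, so AOP3 was tested because of its brighter arrays. It fell by 2.17 on the log2 scale (SE 0.21, 95% interval -2.67 to -1.67, limma adjusted p = 0.000264), or 4.50-fold, and in 3 of 3 lines. Its fall was the deepest of the 4 genes in each line.

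The 2 glucosyltransferase genes of the core structure differed from each other. AT2G31790 had log2 values of 7.17, 6.93 and 7.04 without QDs in WT, atnp01 and atnp02, and of 6.09, 6.0 and 6.48 at 80 mg/L. The groups did not overlap. AT2G31790 fell by 0.86 on the log2 scale (SE 0.11, 95% interval -1.11 to -0.61, limma adjusted p = 0.000658), or 1.82-fold.

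UGT74B1 had log2 values of 7.11, 7.11 and 7.14 without QDs in the same order of lines, and of 6.79, 6.94 and 7.15 at 80 mg/L. Here the groups overlapped, since the exposed atnp02 array was as high as the unexposed ones. The limma coefficient of UGT74B1 was -0.16 (SE 0.08, adjusted p = 0.145). Its 95% interval ran from -0.36 to 0.04, so a fall of the size of that of AT2G31790 lay outside it.

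**Figure D1:**
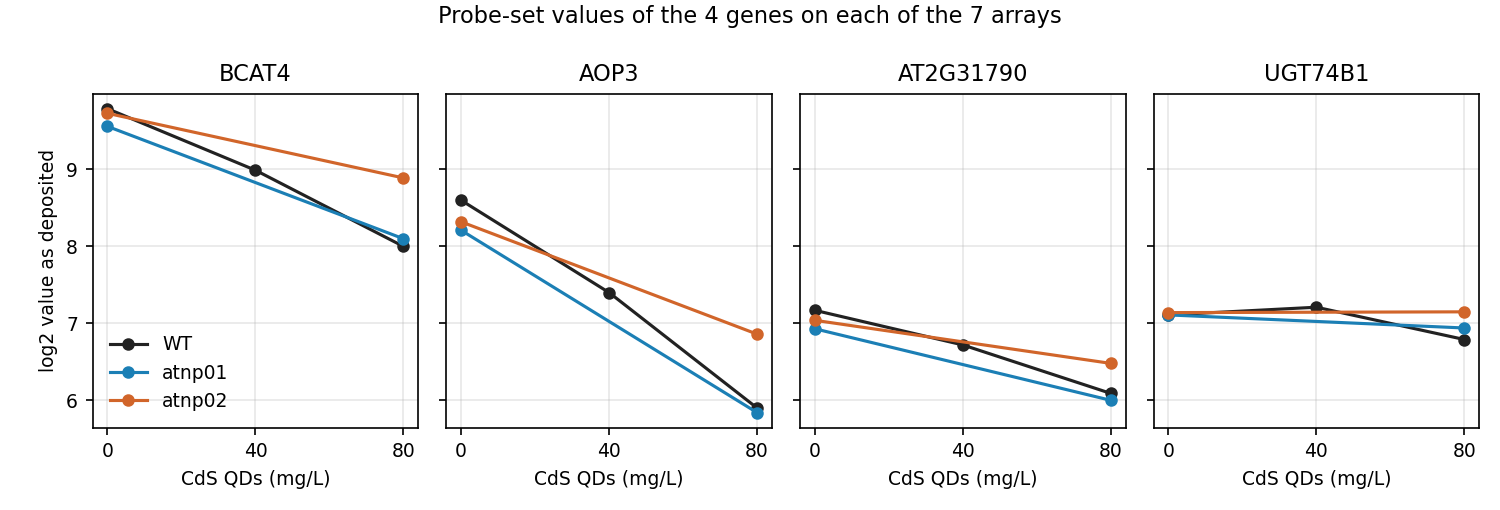
Deposited log2 value (y axis) of BCAT4, AOP3, AT2G31790 and UGT74B1 against the CdS QD dose in mg/L (x axis), with 1 point per array and a line joining the arrays of WT, atnp01 or atnp02. BCAT4, AOP3 and AT2G31790 are lower on every exposed array than on any unexposed array, with atnp02 highest at 80 mg/L, while UGT74B1 lies between 6.79 and 7.21 throughout. Levels of different genes come from different probes and are not comparable.

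Over all 2106 genes tested, 57.1% passed at 80 mg/L, made up of 29.3% that fell and 27.8% that rose. A call by itself is therefore common, and the 3 calls among 4 genes are read against that background. The sizes were less common. The coefficient of AOP3 was reached or exceeded in the downward direction by 0.522% of tested genes, that of BCAT4 by 1.95% and that of AT2G31790 by 4.51%, against 35.5% for UGT74B1. The median coefficient over all tested genes was -0.03.

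Differences in response between members were compared within each line, over 6 pairs of genes. AOP3 minus UGT74B1 was -2.38 in WT, -2.20 in atnp01 and -1.46 in atnp02 on the log2 scale, with a mean of -2.01 ± 0.49 (SD, n = 3 lines). Of the glucosyltransferase genes, AT2G31790 had the lower response in each line. The difference UGT74B1 minus AT2G31790 was 0.77, 0.77 and 0.57, a mean of 0.70 ± 0.11 (SD, n = 3 lines). The response of AOP3 was also below that of BCAT4, where BCAT4 minus AOP3 was 0.90, 0.90 and 0.61. In all 6 pairs the 3 lines had the same sign, and the two-sided exact sign-flip permutation p was 0.25, also after Benjamini-Hochberg adjustment, the smallest that 3 lines can give. This test can therefore not reach 0.05.

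The dose comparison in WT asked whether the falls were already present at 40 mg/L. BCAT4, AOP3 and AT2G31790 had intermediate values there, and UGT74B1 did not. The WT log2 values of BCAT4 at 0, 40 and 80 mg/L were 9.79, 8.99 and 8.0, those of AOP3 8.60, 7.40 and 5.90, and those of AT2G31790 7.17, 6.72 and 6.09. Each of these 3 genes went down at both steps. UGT74B1 was at 7.11, 7.21 and 6.79, with its highest value at 40 mg/L.

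Against the array at 0 mg/L, the log2 difference at 40 mg/L was -0.80 for BCAT4, -1.20 for AOP3, -0.45 for AT2G31790 and 0.10 for UGT74B1. At 80 mg/L the log2 differences were -1.79, -2.69, -1.08 and -0.32. Both sets share the unexposed WT array. AOP3 was thus the 1 member at least 2-fold lower at 40 mg/L, where 2.38% of the genes that reached the floor were. BCAT4, AOP3 and AT2G31790 were at least 2-fold lower at 80 mg/L, against 2.49% of genes. The log2 difference at 40 mg/L was 44.9% of that at 80 mg/L for BCAT4, 44.4% for AOP3 and 41.9% for AT2G31790.

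Directly between the exposed WT arrays, from 40 to 80 mg/L, the log2 difference was -1.50 for AOP3, -0.99 for BCAT4, -0.63 for AT2G31790 and -0.41 for UGT74B1. Of 1872 genes, 9 were at least 2-fold lower at 80 than at 40 mg/L, or 0.481%. AOP3 was 1 of them and had the lowest difference of all 1872, and BCAT4 lay just short of 2-fold. After quantile normalization the difference of BCAT4 was -1.02. There was 1 array per dose, so these differences have no replicate check.

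The comparison of lines asked how the resistant mutants differed from WT in these genes. Without QDs all 4 genes lay within log2 0.39 of WT in both mutants. In atnp01 the log2 difference from WT at 0 mg/L was -0.23 for BCAT4, -0.39 for AOP3 and -0.24 for AT2G31790. In atnp02 these differences were -0.06, -0.28 and -0.13. UGT74B1 was at 7.11 in WT and atnp01 and at 7.14 in atnp02. No member was 2-fold apart from WT without QDs, where 0.601% of genes were in atnp01 and 0.225% in atnp02.

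At 80 mg/L atnp02 held higher levels of BCAT4 and AOP3 than the other two lines, whereas atnp01 lay near WT. Against exposed WT, the log2 difference in atnp02 was 0.89 for BCAT4, 0.96 for AOP3, 0.39 for AT2G31790 and 0.35 for UGT74B1. In atnp01 the same differences were 0.10, -0.06, -0.09 and 0.15. No member was 2-fold apart from exposed WT, where 1.36% of genes were in atnp01 and 1.26% in atnp02. The atnp02 differences of BCAT4 and AOP3 were reached or exceeded upward by 0.82% and 0.711% of 1829 genes. Against exposed atnp01, AOP3 was higher in atnp02 by 1.02 and so past 2-fold, where 0.445% of genes were higher by that much. BCAT4 was higher by 0.79 and AT2G31790 by 0.48.

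The response itself, 80 against 0 mg/L, was -1.79 in WT, -1.46 in atnp01 and -0.84 in atnp02 for BCAT4, in log2 units. For AOP3 it was -2.69, -2.37 and -1.45, and for AT2G31790 -1.08, -0.94 and -0.57. BCAT4 and AOP3 were at least 2-fold lower in atnp01, against 3.88% of genes there. In atnp02 only AOP3 was, against 3.75% of genes. The atnp02 response was 46.8% of the WT response for BCAT4, 53.9% for AOP3 and 52.6% for AT2G31790, as shares of log2 differences. In atnp01 these shares were 81.7%, 87.9% and 86.8%.

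None of these line differences passed a test across genes. In the limma term for a different response of the mutants as a class, BCAT4 had a coefficient of 0.64 (SE 0.24, unadjusted p = 0.0297, adjusted p = 0.462) and AOP3 one of 0.78 (SE 0.32, unadjusted p = 0.045, adjusted p = 0.479). AT2G31790 was at 0.33 (adjusted p = 0.552) and UGT74B1 at 0.24 (adjusted p = 0.594). That fit had 1 residual degree of freedom and placed 0.0475% of genes past the threshold. A fit that gave atnp02 alone its own response was added after the values were seen. There AOP3 had a coefficient of 1.08 (95% interval 0.58 to 1.58, unadjusted p = 0.00143) and BCAT4 one of 0.79 (95% interval 0.29 to 1.28, unadjusted p = 0.00715), with an adjusted p of 0.909 for both. Over both doses, the largest line coefficient among the members was 0.57 for AOP3 in atnp02 against atnp01 (SE 0.26, adjusted p = 0.611). The share of genes past the threshold in that comparison was 0.095%, against 0.142% for atnp01 and 0.0475% for atnp02 against WT, and no member was among them.

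**Figure D2:**
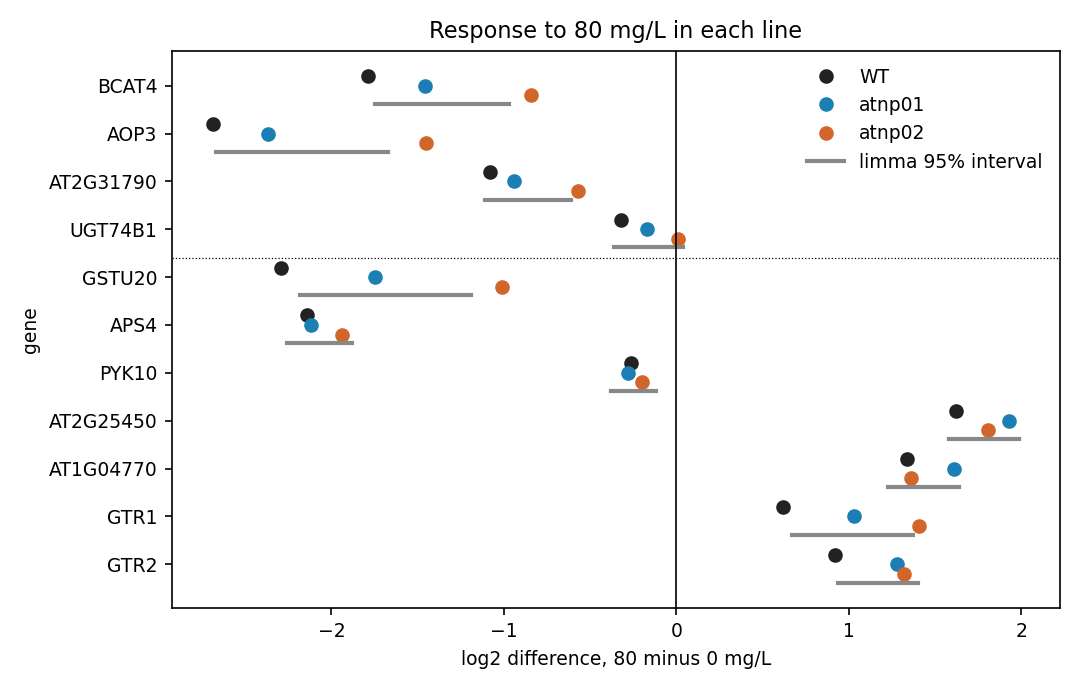
Log2 difference between 80 and 0 mg/L (x axis) for the 4 genes, above the dotted line, and for 7 other genes of the pathway lists, with 1 point per line and a grey bar for the 95% interval of the limma coefficient. For the 4 genes, GSTU20, APS4, GTR1 and GTR2 the points run rightward from WT to atnp01 to atnp02. Those of APS4 lie within 0.20 of each other, and AT2G25450, AT1G04770, GTR1 and GTR2 lie above 0.

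Over the 7 arrays the profiles of BCAT4, AOP3 and AT2G31790 were close to each other. Pearson's r, across 7 arrays that share the exposed and unexposed split, was 0.992 between BCAT4 and AOP3, 0.986 between BCAT4 and AT2G31790 and 0.996 between AOP3 and AT2G31790. Each was compared with 437 other genes that reached the floor and varied by at least log2 1. For each of the 3 genes, the nearest profiles were those of the other two and of GSTU20 (AT1G78370), a tau-class glutathione transferase gene. GSTU20 correlated at 0.993 with BCAT4, 0.994 with AOP3 and 0.988 with AT2G31790. The next gene in order was at 0.971 for BCAT4, 0.977 for AOP3 and 0.983 for AT2G31790. High values were not rare in this set, since 4.58% of the 437 genes reached 0.9 with BCAT4, 6.18% with AOP3 and 5.03% with AT2G31790. Of 575 varying probe sets that are unnamed here, 7 were at least as close to BCAT4 as AT2G31790 was, 2 were as close to AOP3 as BCAT4 was, and 3 as close to AT2G31790 as BCAT4 was.

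UGT74B1 varied by 0.41 over the 7 arrays and was too flat for its own search. Its r was 0.756 with BCAT4, 0.731 with AT2G31790 and 0.719 with AOP3.

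GSTU20, listed with the core structure genes and known to be expressed together with the methionine-derived branch, went down at both dose steps in WT as BCAT4 did. Its WT log2 values were 9.55, 8.65 and 7.26 at 0, 40 and 80 mg/L. It was at 9.26 and 7.51 in atnp01 and at 9.29 and 8.27 in atnp02, without and with 80 mg/L. GSTU20 fell by 1.68 on the log2 scale across lines (SE 0.21, limma adjusted p = 0.000693), and its atnp02 response was 44.3% of that in WT.

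**Figure D3:**
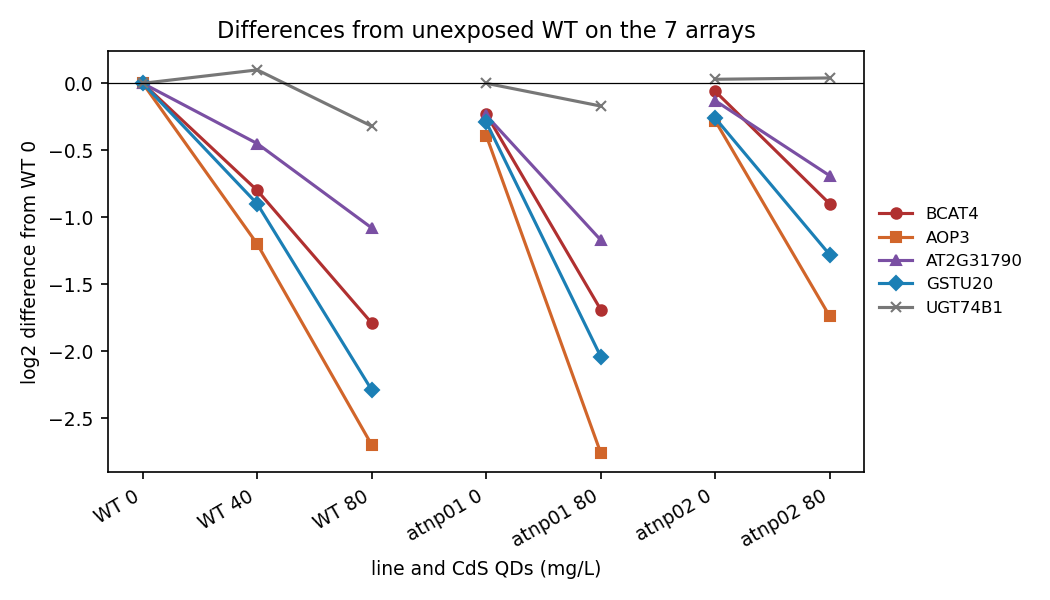
Log2 difference from the unexposed WT array (y axis) on the 7 arrays (x axis, line and dose in mg/L) for BCAT4, AOP3, AT2G31790, GSTU20 and UGT74B1, with lines joining arrays of 1 plant line. The first 4 genes go down together, with WT at 40 mg/L and atnp02 at 80 mg/L at intermediate depth, while UGT74B1 stays between -0.32 and 0.10.

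Other genes of the pathway were read from lists of chain elongation, core structure, side-chain modification, regulators, transport, breakdown and sulfur donors, 75 genes in all. The annotation held 16 of these, and 12 of them passed the floor, the 4 members included. Among the 12, 6 fell, 5 rose and 1 did not pass, where 29.3% of all tested genes fell and 27.8% rose. Their median coefficient was -0.20 against -0.03 over all genes. Several passed the floor only on the side where they were high, so this count is a description. With no floor, 5 of the 16 fell and 6 rose, where 19.1% of all 13355 genes passed. These shares are not alike, since 12 of the 16 but only 2106 of the 13355 genes reached the floor. PYK10 accounted for the lost fall and MYC3 for the gained rise.

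Genes of the synthesis lists moved in both directions. These lists held, besides the 4 members and GSTU20, AT2G25450 and AOP1, the first of these with side-chain modification and without a name in the reference table. AT2G25450 was at 5.24, 5.53 and 5.24 without QDs in WT, atnp01 and atnp02, and at 6.86, 7.46 and 7.05 at 80 mg/L. Its unexposed values all lay below the floor, so AT2G25450 was tested because of its exposed arrays. It rose by 1.78 on the log2 scale (SE 0.09, limma adjusted p = 4.23e-05, and 0.000324 without the floor), opposite to AOP3 in the same list. AOP1, a member of the same dioxygenase family, did not reach the floor, with values between 4.92 and 5.46.

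The transporter genes GTR1 and GTR2, whose products import glucosinolates into cells, rose. GTR1 was at 5.70, 5.45 and 5.16 without QDs and at 6.32, 6.47 and 6.57 at 80 mg/L, a coefficient of 1.02 (SE 0.15, limma adjusted p = 0.00129). GTR2 was at 5.80, 5.94 and 5.93 without QDs and at 6.72, 7.22 and 7.24 at 80 mg/L, a coefficient of 1.17 (SE 0.10, limma adjusted p = 0.000132). For both, exposed and unexposed arrays did not overlap, and the WT value at 80 mg/L was the lowest of the exposed ones. All unexposed values of GTR1 and GTR2 lay below the floor, so both were tested because of their exposed arrays. Without the floor their limma adjusted p was 0.00636 and 0.00113.

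AT1G04770, on the list of regulators and also without a name in the reference table, rose by 1.44 on the log2 scale (SE 0.09, limma adjusted p = 6.12e-05). Its values of 5.58, 5.17 and 5.53 without QDs lay below the floor, so it was tested because of its exposed arrays. Without the floor its limma adjusted p was 0.000458. Of the breakdown list, PYK10 fell by 0.25 (SE 0.06, limma adjusted p = 0.00813) and did not pass without the floor (adjusted p = 0.0608). BGLU28, a glucosidase gene used as a marker of sulfur limitation, rose from values between 1.19 and 2.72 to values between 7.95 and 8.56 at 80 mg/L, and its low values lay near background. APS4, which encodes an ATP sulfurylase at the start of sulfate assimilation, fell by 2.07 (SE 0.08, limma adjusted p = 2.46e-05).

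The falls of the synthesis genes and that of APS4 had different courses over dose and line. In WT, APS4 was at 7.21, 5.31 and 5.07 at 0, 40 and 80 mg/L, so that 88.9% of its log2 difference at 80 mg/L was present at 40 mg/L, against 41.9% to 44.9% for BCAT4, AOP3 and AT2G31790. From 40 to 80 mg/L APS4 differed by -0.24. Its exposed values, 5.07 to 5.38 over the lines, all lay below the floor, so APS4 was tested because of its unexposed arrays. Whether such low values flatten its course was not tested. The rising genes also had most of their difference at 40 mg/L. The share was 82.6% for AT2G25450, 120.9% for AT1G04770, 142.4% for GTR1, 149.5% for GTR2 and 114.8% for BGLU28. The figures leave BGLU28 out. The response of APS4 in atnp02 was 90.8% of that in WT, that of AT2G25450 111.4% and that of AT1G04770 101.4%. Those of GTR1 and GTR2 were 228.2% and 143.3%, while that of BGLU28 was 86.5%. These shares rest on single arrays and were not tested against each other.

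**Figure D4:**
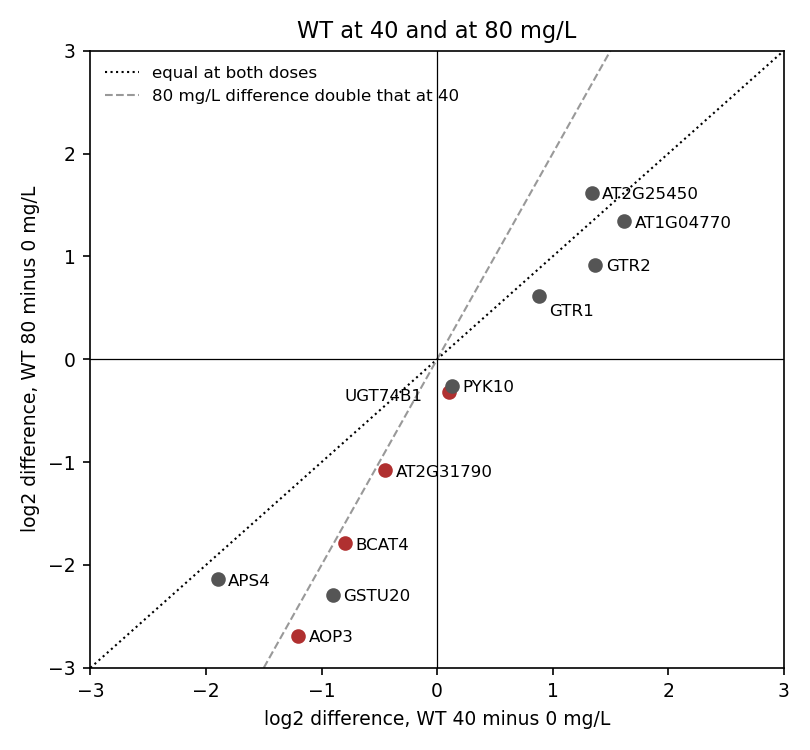
Log2 difference of WT at 80 mg/L from WT at 0 mg/L (y axis) against that at 40 mg/L (x axis), both from the same unexposed array, with 1 point per gene, the 4 members in red and 7 other listed genes in grey. BCAT4, AOP3, AT2G31790 and GSTU20 lie below the dashed line, on which the difference at 80 mg/L is double that at 40 mg/L, while APS4, AT2G25450, AT1G04770, GTR1 and GTR2 lie closer to the dotted line of equal differences.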

How the data were processed

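The deposited table holds 1 log2 value per probe set for each of 7 ATH1 arrays, for which the submitters' processing notes name RMA and Affymetrix Expression Console 1.1. The sources used here do not give the background step or say whether the authors added another. Of 22810 probe sets, 64 controls were left out, 14016 others were on the platform annotation, and 13513 had 1 gene. Of these 13436 matched the gene table of assembly TAIR10.1 by gene identifier. The probe set with the highest mean stood for a gene with several. Groups came from sample titles, with 1 array each.

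Single arrays were compared by log2 difference, with 1 taken as 2-fold, for genes whose brighter array reached log2 6. The effects of 80 mg/L and of line came from 1 limma fit (version 3.58.1, R 4.3.3) to 6 arrays with line and dose as terms and a trend in eBayes. P-values were adjusted by Benjamini-Hochberg over all 2106 genes, with 0.05 as the threshold. It was tested on simulated data. Tables were made with Python 3.11.15 and pandas 2.3.3. Alternatives covered normalization, floor, features, trend, lines and dose coding. The members and lists were chosen with earlier results of these data known. Named were the members, listed genes that reached the floor, and for each varying member the 3 genes with the highest r. MYC3, MYC4, AOP1 and APS3 did not reach the floor and were named outside that rule, from the fit without a floor. Values for SAG29 and other markers serve as checks. A planned motif search in promoters was not run, and no sequence was analysed here.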

Additional observations from a re-analysis of the deposited data

Results flagged for a closer look

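UGT74B1 was marked because its difference between 80 and 0 mg/L had opposite signs in the lines, -0.32 in WT and -0.17 in atnp01 but 0.01 in atnp02. After quantile normalization the atnp02 difference was -0.03, so the opposite sign was lost. A difference this small cannot be told from 0 on single arrays. The limma term for a different response of the mutants gave UGT74B1 an adjusted p of 0.594. In the later fit that gave atnp02 alone its own response, the coefficient of UGT74B1 was 0.25 (95% interval -0.19 to 0.68). That interval included 0, but the fit was added after the values were seen. It can therefore not decide whether atnp02 responded differently. The atnp02 response in that fit rests on a single array per dose.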

How the results depend on the processing

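The calls of BCAT4, AOP3 and AT2G31790 at 80 mg/L kept their direction and side of the threshold in all 12 alternative fits, with coefficients of -1.63 to -1.15, -2.53 to -1.91 and -1.01 to -0.75 and highest adjusted p-values of 0.00789, 0.00604 and 0.00923. UGT74B1 passed in none, with coefficients of -0.24 to -0.08 and adjusted p-values of 0.0981 to 0.518. The deepest and shallowest coefficients of the 3 came without the atnp02 and without the WT arrays. Another floor or feature set, no trend, no line term or the linear dose term leaves the coefficient unchanged by design. Those fits could change the adjusted p but not the direction. The number of genes past the threshold at 80 mg/L was 1202 of 2106 tested. It was 2552 of 13355 with no floor and 620 of 1018 with a floor of log2 7. Over all probe sets except controls it was 2583 of 4623, and with a linear dose term 780 of 2140. Since the numbers tested differ, the counts alone do not rank these settings. Leaving out a line gave 798 of 2022 without the atnp01 arrays, 815 of 2068 without the atnp02 arrays and 1183 of 2060 without the WT arrays. For atnp01 against WT it was 3, and 6 with a floor of log2 7. For atnp02 against WT it was 1, and 0 over all probe sets and 2 without the trend. For atnp02 against atnp01 it was 2, and 1 with no floor or with a floor of log2 7. The mutant-by-dose term placed 1 gene, 4 after quantile normalization, 10 with a floor of log2 7, and 0 after loess, with no floor, over all probe sets, without the trend, or with atnp02 alone given its own response. The cause of these changes was not tested, beyond the number of genes or arrays that entered each fit. Loess and quantile normalization moved the median response of all tested genes from -0.022 to 0.013 and -0.035. The fit pairs 0 and 80 mg/L within each line through its line term, and without that term BCAT4, AOP3 and AT2G31790 still passed. No paired analysis was possible by replicate number, because the labels give none.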

Other observations

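Another 4 genes of the pathway lists were on the annotation but below the floor, and were read in the fit without a floor. MYC3, a transcription factor gene whose product works with the MYB activators of glucosinolate genes, was at 4.12, 4.09 and 4.28 without QDs and at 4.73, 4.93 and 4.96 at 80 mg/L in WT, atnp01 and atnp02. It rose by 0.71 on the log2 scale (SE 0.09, limma adjusted p = 0.00438), in the direction opposite to BCAT4, AOP3 and AT2G31790. Its relative MYC4 had a coefficient of -0.15 (limma adjusted p = 0.577), AOP1 one of -0.26 (limma adjusted p = 0.14) and the ATP sulfurylase gene APS3 one of 0.17 (limma adjusted p = 0.377).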
